A study of Mus musculus with 3 samples.

Results

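The genes described here encode 51 proteins that bundle, crosslink, contract, cap or sever actin filaments, or that link them to the membrane and to focal adhesions, with the intermediate filament proteins vimentin and nestin. They were listed by symbol, and each was represented by the probe set with the highest mean among those annotated with that symbol alone. All 51 were found among the 19935 genes so measured, and 48 of them had a single probe set. The arrays held RNA of NMuMG cells, epithelial cells of mouse mammary gland origin kept under puromycin. The 2 MAFK arrays were of clones 4 and 10, each a single stable line with pCAGIP-FLAG-MafK (n = 1 array each), and the mock array was of cells with the pCAGIP vector (n = 1). MAFK is a small MAF protein, a leucine zipper factor with no transactivation domain of its own. The labels name no promoter for the transgene and give no clone for the mock cells, so that differences arising from cloning and from MAFK cannot be told apart.

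Actin filaments give a cell its shape through the proteins that bind them. Bundlers such as fascin pack filaments in parallel for filopodia, crosslinkers such as the filamins weave them into networks, and myosin II pulls on them under the control of the thin filament proteins tropomyosin, calponin and caldesmon. Focal adhesions couple the filaments through talin and vinculin to integrins, and epithelial cells hold their own set, with villin and ezrin in microvilli. Many genes of the contractile set are known targets of the serum response factor SRF, which binds the CArG box.

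Mafk itself gave 8.74 in clone 4 and 8.59 in clone 10, against 8.49 in mock, on the log2 RMA scale on which all levels are given. Whether the probes match the transgene was not analysed here. Array medians lay between 6.89 and 6.93. Of 7 epithelial markers, both clones exceeded mock for 3 and were lower for 3, against 33.7% and 17.9% of all genes. The keratin genes Krt8, Krt18 and Krt19 read between 10.9 and 13.7 on all arrays. Krt18 read 10.92 and 11.08 in clones 4 and 10, against 11.95 in mock, and Krt8 read 13.18 and 13.31, against 13.67. Krt19 read 12.25 and 12.08, against 11.99. Among adhesion genes, Epcam read 5.58 and Cldn4 read 6.95 on each array, and Cldn3 read 6.99 and 7.01, against 6.74. Cdh1 (E-cadherin) read 6.85 and 6.64 in clones 4 and 10, against 11.35 in mock. Of 8 myoepithelial and smooth muscle markers, both clones exceeded mock for 3 and were lower for 1, near the 33.7% and 17.9% of all genes. Smtn (smoothelin) read 10.47 and 10.41 in clones 4 and 10, against 10.17 in mock, Krt14 read 6.95 and 6.87, against 7.65, and Myh11 and Des read 6.43 and 5.90 in both clones, against 6.37 and 5.90. Of 7 fibroblast markers, both clones exceeded mock for 4 and were lower for 2, against the same 33.7% and 17.9%. Dcn (decorin) read 5.76 and 6.06, against 7.88 in mock, and Col1a2 read 7.999 and 7.72, against 7.14. The 4 endothelial markers read at most 6.29 on any array, and of the 4 immune markers Cd68 was highest, at 7.74 and 7.88 in clones 4 and 10, against 7.74 in mock. Of all these lists, Cdh1 was the 1 gene to pass limma, and the part of other cell types in the results was not tested.

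The comparison of MAFK with mock asked which of these genes differed in cells carrying FLAG-tagged MAFK. A gene was said to rise or fall where both clones were at least 2-fold from mock in the same direction and limma's moderated test gave an adjusted p under 0.05 over all genes. Fscn1, Flnc and Synpo rose and Pdlim1 fell. None of these calls held when each clone's chromosome median was taken from its differences, a setting under which no gene of the array passed (limma adjusted p from 0.0955 to 0.118 for the 4 genes). Across all genes 0.401% rose and 0.762% fell. The myosin gene Myh10 (2.25-fold higher) and the Ena/VASP gene Enah (3.86-fold lower) also met the 2-fold rule in both clones, neither passing limma. In all, both clones were 2-fold or more above mock for 4 of 51 members, against 1.19% of all genes, and 2-fold or more below it for 2, against 1.81%.

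Smaller differences ran mostly downwards. At 1.5-fold in both clones the 4 higher members were the same genes, while 8 were lower, against 2.54% and 3.63% of all genes. Below mock in both clones lay 24 of 51 members, against 17.9% of all genes, and above mock lay 10, against 33.7%. These shares depend on the level of the genes: among 10722 genes with a mean above the median of all values (6.91), 28.6% lay below mock in both clones, as did 21 of the 42 members above that level. Of those 10722 genes 5.36% were 1.5-fold lower in both clones, as were 7 of the 42 members. At 2-fold 2.08% of them were higher and 2.6% lower, against 1.19% and 1.81% of all genes. On all 3 arrays 10 members had equal values (within 1e-08), against 34.3% of all genes, and 16 had an unadjusted limma p under 0.05, against 17.5%. The median difference of the 51 members was -0.01 in clone 4 and 0 in clone 10, and that of all genes was 0 in each.

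**Figure D1:**
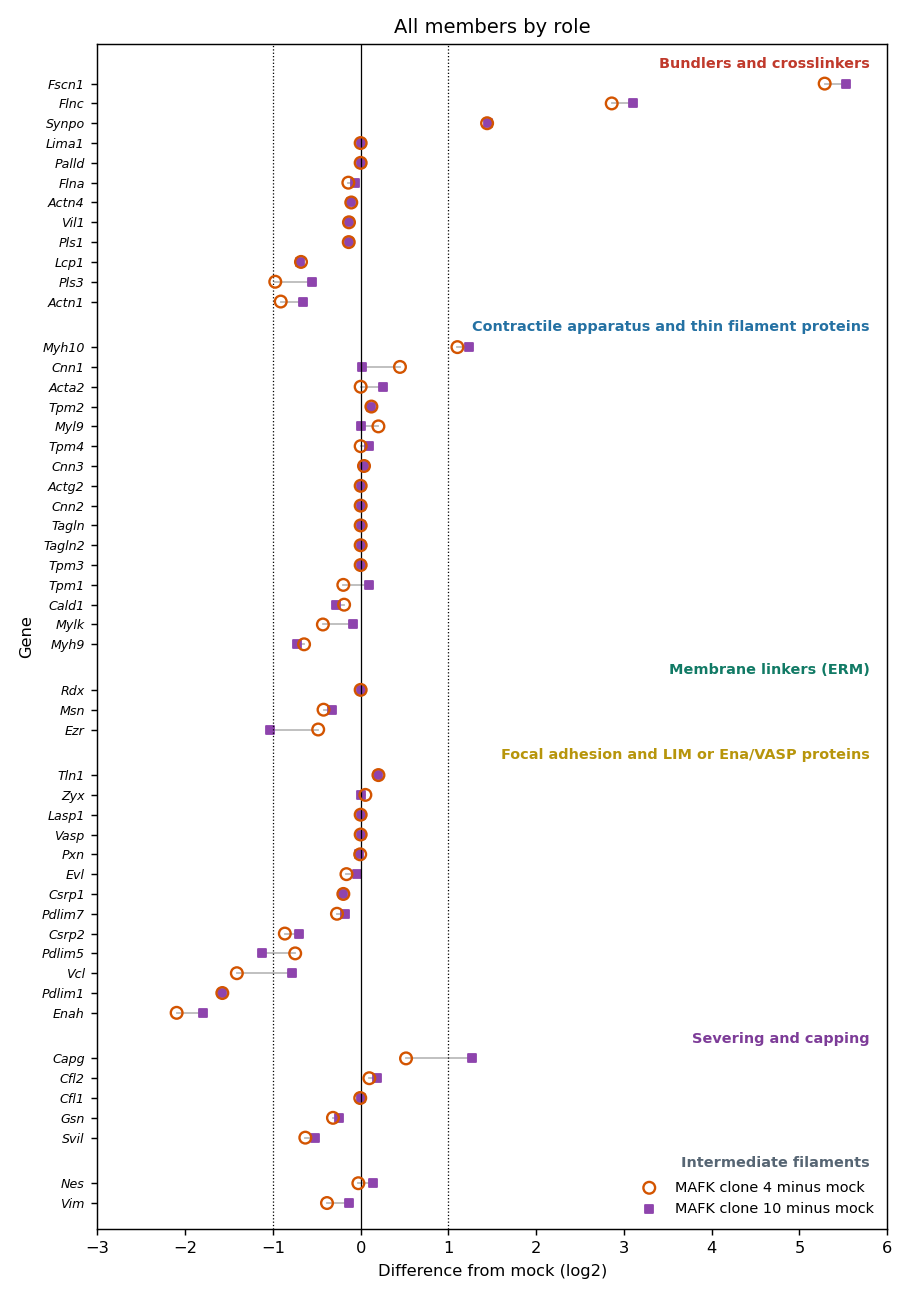
Difference from mock (log2 scale, x axis) of each of the 51 members (y axis), grouped by role, with MAFK clone 4 as open circles and MAFK clone 10 as filled squares (1 array each); dotted lines mark 2-fold. Fscn1, Flnc and Synpo stand to the right among the bundlers and crosslinkers, and the focal adhesion group reaches furthest to the left, to Enah at -2.10 and -1.80.

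The 3 genes that rose all encode bundlers or crosslinkers of actin, a group of 12, while 0.401% of all genes rose. The groups were drawn with earlier results of these data known, so this is a description and not a result about the group. Fscn1, the gene of the filopodial bundler fascin, read 12.16 in clone 4 and 12.40 in clone 10, against 6.87 in mock. Both clones were far above mock and close to each other, and the difference was 5.41 ± 0.14 (SE), or 42.4-fold, with a limma adjusted p of 0.0256. The mock values of Fscn1, Flnc and Synpo lay below that array's median of 6.89, and without detection calls these folds are not known to be taken against a level above background. Its adjusted p ran from 0.0151 to 0.0989 over 9 alternatives, the last with each clone's chromosome median taken off.

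Flnc, which encodes filamin C, the filamin of striated muscle, read 9.10 in clone 4 and 9.34 in clone 10, against 6.24 in mock. Both clones were above mock, as for 33.7% of all genes, and Flnc rose 7.89-fold (2.98 ± 0.14 SE, limma adjusted p = 0.0379). Over 9 alternatives the adjusted p ran from 0.0237 to 0.118, with 0.0578 after a second quantile normalization. Flna, the X-linked gene of the widely expressed filamin A, read 11.73 and 11.80 in clones 4 and 10, against 11.87 in mock, a difference of -0.10 ± 0.08 (SE). Of these filamin genes, Flnc was thus well above mock and Flna close to it.

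Synpo, the gene of synaptopodin, which binds actin and alpha-actinin in podocytes and dendritic spines, read 7.72 in both clones, against 6.27 in mock. It rose 2.72-fold (1.44 ± 0.07 SE, limma adjusted p = 0.0389, with 0.0241 to 0.0979 over 9 alternatives). The clones differed by only 0.01, and such near ties give a gene almost the smallest standard error of the fit, 0.069.

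Upstream sequences are shown for the genes that rose or fell. The 250 bases before each annotated start were taken from RefSeq on GRCm38.p6, and capitals mark matches to 4 motifs (TGCTGA is the one seen here). Synpo is named only. Fscn1 lies on the plus strand at chr5:142960105-142960354, Flnc on the plus strand at chr6:29432903-29433152 and Pdlim1 on the minus strand at chr19:40271617-40271866, each written 5′ to 3′ of its gene.
Fscn1: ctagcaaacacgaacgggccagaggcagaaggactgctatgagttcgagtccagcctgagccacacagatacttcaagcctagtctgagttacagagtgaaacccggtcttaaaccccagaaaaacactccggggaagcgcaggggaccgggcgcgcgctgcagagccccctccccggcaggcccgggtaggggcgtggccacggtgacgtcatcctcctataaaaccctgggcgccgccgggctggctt
Flnc: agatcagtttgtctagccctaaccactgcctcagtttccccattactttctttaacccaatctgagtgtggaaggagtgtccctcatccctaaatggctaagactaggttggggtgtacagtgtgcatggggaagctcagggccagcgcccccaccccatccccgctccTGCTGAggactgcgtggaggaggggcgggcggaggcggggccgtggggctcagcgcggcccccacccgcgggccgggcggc
Pdlim1: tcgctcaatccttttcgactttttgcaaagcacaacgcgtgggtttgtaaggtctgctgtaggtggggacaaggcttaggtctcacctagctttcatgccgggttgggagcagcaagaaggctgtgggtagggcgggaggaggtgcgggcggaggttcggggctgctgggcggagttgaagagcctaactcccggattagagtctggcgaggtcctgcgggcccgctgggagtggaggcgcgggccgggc

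The other 9 members of that group lay at or below mock, so the group holds both the highest differences and a row of small decreases. Actn1, one of the widely expressed alpha-actinin genes, read 11.18 in clone 4 and 11.44 in clone 10, against 12.09 in mock (-0.78 ± 0.15 SE, limma adjusted p = 0.167). Its relative Actn4 read 12.17 in both clones, against 12.27 in mock. The plastins are bundlers with 3 genes. The X-linked Pls3 read 10.27 and 10.69 in clones 4 and 10, against 11.24 in mock, a difference of -0.76 ± 0.22 (SE). Lcp1, the leukocyte plastin gene, read 6.11 and 6.10, against 6.79 in mock (-0.69 ± 0.07 SE, limma adjusted p = 0.0835). Pls1, the intestinal plastin gene, read 6.72 in each clone, against 6.85 in mock. All 3 plastin genes therefore lay below mock in both clones, none passing limma. Lcp1 and Pls1, however, read below the array median on every array and are not known to be above background. Vil1, the villin gene of microvilli, read 5.96 in both clones, against 6.10 in mock, all below the array medians. Lima1 (EPLIN, which crosslinks filaments at junctions) and Palld (palladin, a stress fibre scaffold) had the same values in both clones as in mock, 8.72 and 6.60.

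**Figure D2:**
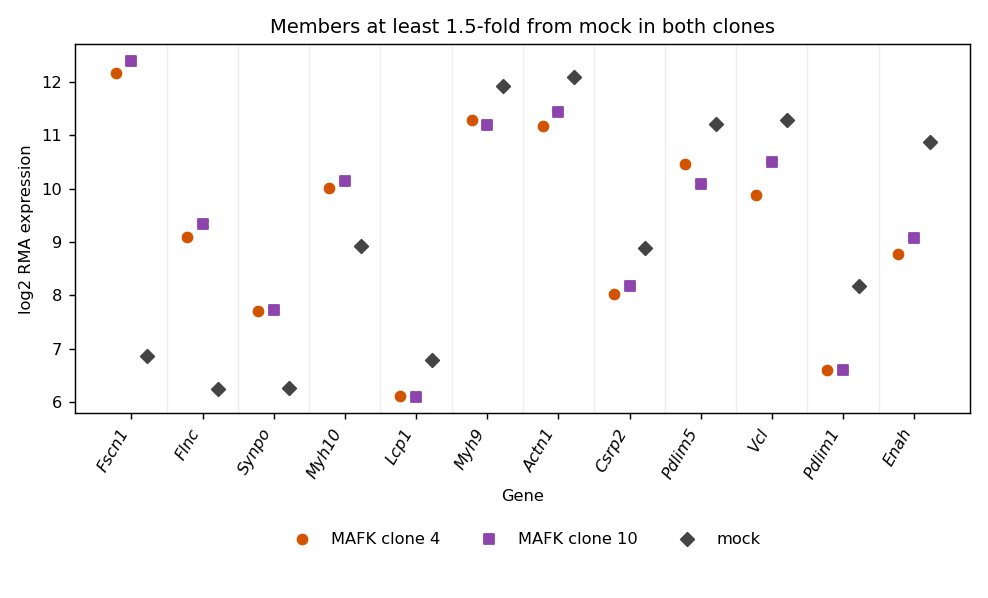
log2 RMA expression (y axis) of the 12 members at least 1.5-fold from mock in both clones (x axis, ordered by difference), with MAFK clone 4 as circles, MAFK clone 10 as squares and mock as diamonds, 1 array each and no error bars. The clones stand above mock for Fscn1, Flnc, Synpo and Myh10 and below it for the other 8.

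None of the 16 genes of the contractile apparatus and thin filament rose or fell, against 0.401% and 0.762% of all genes. An unadjusted limma p under 0.05 was found for 2 of them, against 17.5% of all genes. Both counts are near those shares. Myh10 and Myh9, which encode nonmuscle myosin II heavy chains, lay on opposite sides of mock, neither passing. Myh10, the heavy chain of myosin IIB, read 10.02 in clone 4 and 10.15 in clone 10, against 8.92 in mock. That is 2.25-fold higher (1.17 ± 0.10 SE), with a limma adjusted p of 0.0693. Myh9, the heavy chain of myosin IIA, read 11.28 and 11.20 in clones 4 and 10, against 11.92 in mock. It was 1.61-fold lower (-0.69 ± 0.08 SE, limma adjusted p = 0.101), and a second Myh9 probe set gave -0.79 and -0.77 in clones 4 and 10. With the limma prior taken from all genes both had an adjusted p under 0.05 (limma, 0.039 for Myh10 and 0.0425 for Myh9), of which Myh10 alone was also 2-fold from mock. Under that prior 3553 of 19935 genes had a limma adjusted p under 0.05, against 232 in the main fit. Over alternatives the adjusted p of Myh10 reached 0.135 and that of Myh9 0.14, and the difference between the 2 genes was not tested.

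The genes that mark smooth muscle and myofibroblasts gave little or no difference. Acta2, the smooth muscle alpha-actin gene, read 7.10 in clone 4 and 7.36 in clone 10, against 7.10 in mock. Tagln (SM22, an early marker of smooth muscle) read 6.37 on every array, and Actg2 (enteric smooth muscle actin) read 6.20 on every array, both below the array medians. Cnn1, the calponin of smooth muscle, read 7.37 in clone 4 and 6.94 in clone 10, against 6.92 in mock, so that clone 10 was at the level of mock. Their limma adjusted p-values were 1 for Acta2, Tagln and Actg2 and 0.967 for Cnn1. Myl9, the regulatory myosin light chain gene, read 6.40 and 6.20 in clones 4 and 10, against 6.20 in mock. Mylk, whose kinase phosphorylates that light chain, read 7.39 and 7.73, against 7.82 in mock. With mock measured once, differences of this size were not detectable.

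The widely expressed relatives of those genes were also near mock. Tagln2 and Cnn2 had equal values on all arrays (11.88 and 10.24), and Cnn3 read 11.65 in both clones, against 11.62 in mock. Tropomyosins coat the filament and set which myosins and crosslinkers may bind. Tpm1 read 11.77 in clone 4 and 12.06 in clone 10, against 11.97 in mock, on both sides of it. Tpm2 read 6.28 in both clones, against 6.16 in mock, and Tpm4 read 12.42 and 12.51 in clones 4 and 10, against 12.42. Tpm3 read 12.58 on each array in its brightest probe set. It had 4 probe sets, of which 3 were equal on all arrays and 1 read 9.60 in both clones, against 9.52 in mock. The brightest set is numbered 10416940, near Lcp1 of chromosome 14 (10416437). The set that differed is numbered 10493633, near Nes of chromosome 3 (10493114), where Tpm3 is annotated. Which Tpm3 transcripts or copies each set measures was not tested. Cald1, the caldesmon gene, read 11.12 and 11.03 in clones 4 and 10, against 11.31 in mock (-0.24 ± 0.08 SE, limma adjusted p = 0.339).

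The ERM proteins tie actin to the plasma membrane, and their genes were lower or equal. Ezr, the ezrin gene, whose product is the main ERM protein of microvilli, read 10.65 in clone 4 and 10.10 in clone 10, against 11.13 in mock. The difference was -0.76 ± 0.29 (SE) with a limma adjusted p of 0.366, and clone 10 alone was 2-fold lower. Msn, the X-linked moesin gene, read 11.49 and 11.58 in clones 4 and 10, against 11.91 in mock (-0.38 ± 0.08 SE). Rdx, the radixin gene, read 10.22 on all arrays.

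Among 13 focal adhesion, LIM domain and Ena/VASP genes, 9 lay below mock in both clones, against 17.9% of all genes and 28.6% of those above the median level, where all 13 lay, while 1 lay above and 1 fell. Pdlim1, whose PDZ and LIM protein binds alpha-actinin on stress fibres, read 6.60 in both clones, against 8.18 in mock. It fell 2.98-fold (-1.58 ± 0.07 SE, limma adjusted p = 0.0351). A second Pdlim1 probe set read 6.04 and 6.05 in clones 4 and 10, against 6.70 in mock. Its differences were -0.67 and -0.65, under 2-fold, and its mock value lay below that array's median of 6.89. With the mean of both sets the difference was -1.12 and the adjusted p 0.0548. Where tied clones added no certainty the adjusted p was 0.112, the highest of 9 alternatives, which began at 0.0236. Both sets were lower in both clones, but the call rests on the brighter set and on the tie. The brighter set is numbered 10520950, near Ppp1cb of chromosome 5 (10520952). The second is numbered 10467420, near Acta2 of chromosome 19 (10467124). Which Pdlim1 transcripts or copies each set measures was not tested, and the upstream sequence shown is that of Pdlim1 on chromosome 19.

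Enah, Pdlim5 and Pdlim7, also of this group, lay below mock in both clones without passing. Enah, the gene of MENA, an Ena/VASP protein that lengthens filaments at their growing ends, read 8.77 in clone 4 and 9.07 in clone 10, against 10.87 in mock. It was 3.86-fold lower (-1.95 ± 0.17 SE), with a limma adjusted p of 0.0706 and 0.0523 to 0.14 over alternatives. Its paralogues hardly differed: Vasp read 9.07 on all arrays, and Evl read 9.60 and 9.72 in clones 4 and 10, against 9.76 in mock. Pdlim5 (ENH) read 10.46 and 10.09 in clones 4 and 10, against 11.21 in mock (-0.93 ± 0.20 SE, limma adjusted p = 0.195). Pdlim7 (enigma) read 9.19 and 9.28, against 9.46. Of the PDZ-LIM genes outside the 51, Pdlim2 read 7.73 and 7.97 in clones 4 and 10, against 7.46 in mock, Pdlim3 read 6.15 and 6.14, against 5.9998, and Pdlim4 read 6.69 and 6.71, against 6.71. The family thus lay on both sides of mock.

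Vcl, the gene of vinculin, which reinforces the link between talin and actin under tension, read 9.88 in clone 4 and 10.51 in clone 10, against 11.29 in mock. Both clones were below mock, clone 4 by 1.41 and clone 10 by 0.78 on the log2 scale, and the spread between them left a limma adjusted p of 0.275 (-1.09 ± 0.33 SE). Tln1, a talin gene, was the 1 gene of the group above mock in both clones, at 10.58 in each, against 10.37 (0.20 ± 0.07 SE, limma adjusted p = 0.323). Zyx (zyxin, recruited to strained stress fibres) read 9.62 and 9.57 in clones 4 and 10, against 9.57 in mock. Pxn (paxillin, an adhesion scaffold) read 9.90 and 9.89, against 9.91, and Lasp1, a LIM and SH3 protein gene, read 11.43 on all arrays. Csrp2, a LIM protein gene, read 8.02 and 8.18 in clones 4 and 10, against 8.88 in mock (-0.78 ± 0.11 SE, limma adjusted p = 0.121). Its relative Csrp1 read 11.29 in both clones, against 11.49.

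None of the 5 severing and capping genes rose or fell, which is near the 0.401% and 0.762% of all genes. Capg, the gene of a gelsolin relative that caps filaments without cutting them, read 9.21 in clone 4 and 9.96 in clone 10, against 8.69 in mock. Both clones were above mock, clone 10 by 1.27 and clone 4 by 0.52 on the log2 scale (limma adjusted p = 0.433). Gsn, the gelsolin gene, read 9.28 and 9.34 in clones 4 and 10, against 9.59 in mock. Svil, which encodes supervillin, a membrane protein of the villin family, read 8.42 and 8.53, against 9.05 (-0.58 ± 0.09 SE, limma adjusted p = 0.135). The cofilin genes, whose products sever and turn over filaments, were near mock: Cfl1 read 13.08 on each array and Cfl2 read 10.63 and 10.72 in clones 4 and 10, against 10.53. Neither intermediate filament gene passed the test. Vim, the vimentin gene, often used as a mesenchymal marker, read 13.01 and 13.26 in clones 4 and 10, against 13.39 in mock (-0.26 ± 0.14 SE, limma adjusted p = 0.566). Nes, the nestin gene of progenitor cells, read 6.16 and 6.33, against 6.19.

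**Figure D3:**
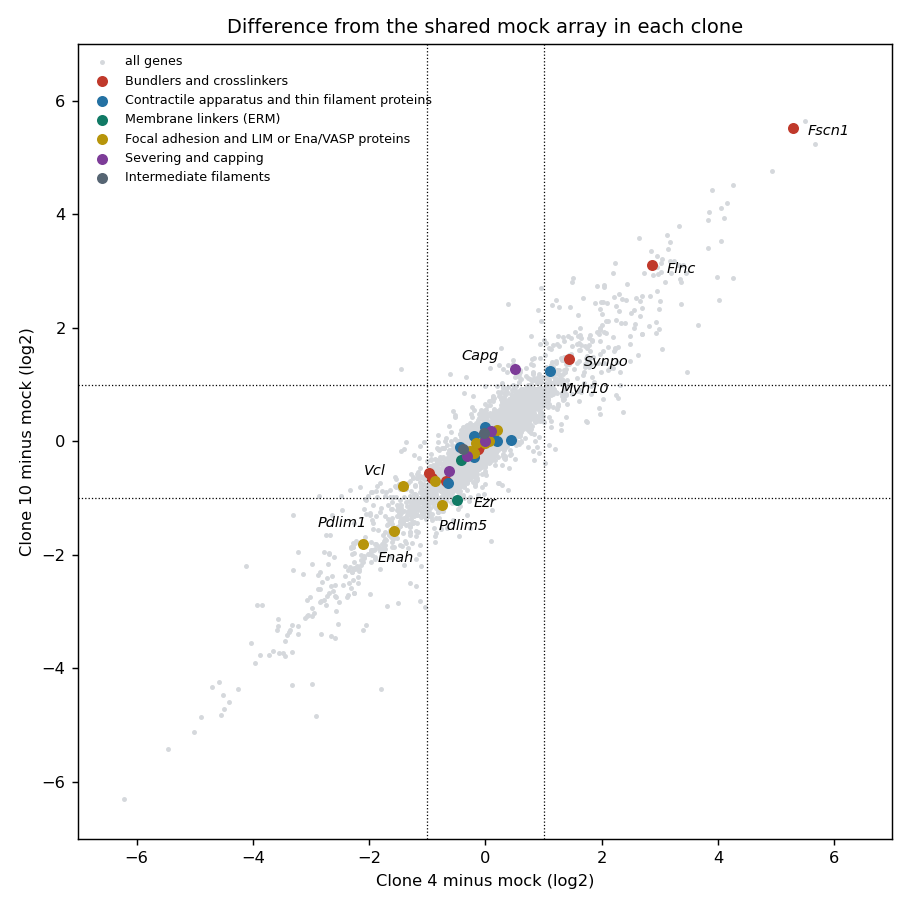
Difference from mock in MAFK clone 4 (x axis) and MAFK clone 10 (y axis), both on the log2 scale, for all genes (grey) and the 51 members (coloured by role); dotted lines mark 2-fold. Both axes share the single mock array, so the diagonal spread of points is in part common to them, and Fscn1 lies at 5.29 and 5.52.

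The clones can be set against each other without the mock array, with 1 array each and no test. No member was 2-fold apart between clone 10 and clone 4, against 0.441% of all genes. Capg had the largest gap, 0.75 higher in clone 10, followed by Vcl, 0.63 higher in clone 10, and Ezr, 0.55 lower in clone 10. Clone 10 lay above clone 4 for 24 members, against 21.3% of all genes, and below it for 10, against 23.2%, and 17 had equal values. For all genes 55.5% were equal in the clones.

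Flna, Pls3 and Msn are X-linked and lay below mock in both clones. The median difference of the 739 X-linked genes measured was 0 in each clone. Taking each clone's chromosome medians off left the differences of Fscn1, Flnc, Synpo and Pdlim1 as they were (5.41, 2.98, 1.44 and -1.58) but ended their limma calls. The medians differed between the clones on some chromosomes, so that 10113 genes were tied between the clones in place of 11062 and the prior had 1.13 in place of 1.93 degrees of freedom. With 1 median shared by both clones, an alternative chosen after that outcome was seen, the 4 calls stood.

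RefSeq start sites on GRCm38.p6 gave promoter windows of 300 bases (250 before and 50 after the start) for 45 of the 51 members. No window was available for Synpo, Svil, Actg2, Csrp2, Tagln and Pxn, so the motifs were not searched in them. Both strands were searched for the CArG box (CC, then 6 bases each A or T, then GG), the MAF core TGCTGA, the CNC and small MAF core TGACNNNGC and the AP-1 site TGANTCA, of which TGCTGA and TGACNNNGC can overlap. The windows of Fscn1 and Pdlim1 held none of the 4 motifs. Flnc has a pair of annotated starts, and both windows held the same TGCTGA, 81 bases before the start shown, a motif found in 21.7% of all 27025 genes with a window and in 11 of the 45 members. TGACNNNGC was found in 3 members and 14% of all genes, and TGANTCA in 6 members and 8.97% of all genes.

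The CArG box was found in 5 of 45 members, against 1.81% of all genes. These 5 sites are shown with 10 bases on each side because SRF is a known regulator of many contractile genes, and capitals mark the box. Cnn2 lies at chr10:79988534-79988563 (plus strand), Lima1 at chr15:99820177-99820206 (minus), Myl9 at chr2:156775293-156775322 (plus), Vcl at chr14:20929161-20929190 (plus) and Vil1 at chr1:74409301-74409330 (plus).
Cnn2: cgcttccacgCCTTATAAGGacatttgctc
Lima1: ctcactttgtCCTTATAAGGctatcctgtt
Myl9: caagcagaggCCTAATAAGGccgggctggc
Vcl: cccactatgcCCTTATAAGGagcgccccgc
Vil1: ccctatcttcCCTTATATGGtgaaggaagt
None of these 5 genes rose or fell, which is near the 0.401% and 0.762% of all genes. Cnn2 and Lima1 had equal values on all arrays, Myl9 and Vil1 differed from mock by at most 0.20 in either clone, and Vcl was lower in both without passing. A match is a description of the letters and not evidence of binding.

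The wider set of actin and adhesion genes was represented by 139 others, chosen from a list of 152 symbols. The 2-fold rule in both clones was met by 6 above mock and 3 below it, against 1.19% and 1.81% of all genes, and 1 rose and 1 fell, against 0.401% and 0.762%. The counts of 2-fold lower, risen and fallen genes are near what those shares give. Both called genes are X-linked, and the median difference of X-linked genes was 0 in each clone. Neither passed with each clone's chromosome median taken off, a setting under which no gene of the array passed. Pak3, a p21-activated kinase gene acting below RAC and CDC42, rose 9.02-fold and read 8.68 and 8.67 in clones 4 and 10, against 5.50 in mock (limma adjusted p = 0.0256), a mock value below that array's median and not known to be above background. Fhl1, a LIM-only protein gene of muscle, fell 2.58-fold and read 6.63 in both clones, against 8.004 in mock (limma adjusted p = 0.0409). Its clones were tied, and it did not pass where ties added no certainty.

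Formins nucleate unbranched filaments, and their genes differed in both directions without passing. Fhod3, a formin gene of heart muscle, read 7.94 in clone 4 and 8.19 in clone 10, against 6.32 in mock (limma adjusted p = 0.0693). Fmn1 read 8.18 and 8.24 in clones 4 and 10, against 9.37 in mock, and Fmnl1 read 6.74 in both, against 7.80. Their limma adjusted p-values were 0.0533 and 0.0537. Pfn2, a profilin gene, was 2-fold higher in each clone but spread widely, at 7.83 and 9.09 in clones 4 and 10, against 6.68 in mock (limma adjusted p = 0.345). The zyxin relative Trip6 read 9.48 and 9.37 in clones 4 and 10, against 8.36 in mock.

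Tns1, the tensin gene of mature adhesions, read 9.63 and 9.28 in clones 4 and 10, against 7.92 in mock. Its 6 probe sets were all above mock, by 0.25 to 1.71 in clone 4 and 0.41 to 1.36 in clone 10. Actb, the cytoplasmic beta-actin gene, read 13.78 in both clones, against 13.80 in mock, and Rhoa read 13.08 and 13.13, against 13.16. Srf read 8.82 and 8.65 in clones 4 and 10, against 8.82, and its coactivator gene Mrtfa read 8.78 in both, against 8.58. The transcripts of SRF and MRTF-A thus differed from mock by at most 0.20. None of the 17 measured genes of the Arp2/3 complex and its activators was 1.5-fold from mock in both clones. By that rule 2.54% of all genes were higher and 3.63% lower, so none among 17 is near those shares.

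**Figure D4:**
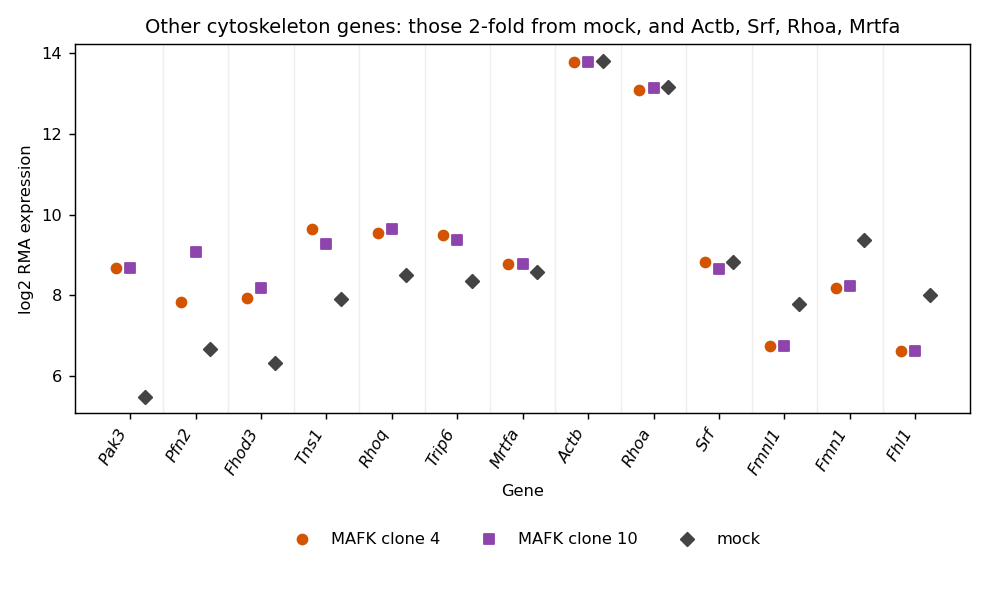
log2 RMA expression (y axis) of 13 other cytoskeleton genes (x axis, ordered by difference), with MAFK clone 4 as circles, MAFK clone 10 as squares and mock as diamonds, 1 array each. Pak3 shows the widest gap from mock among them, and Actb, Rhoa, Srf and Mrtfa lie close to it.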

How the data were processed

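RNA of NMuMG cells was hybridized to 3 Affymetrix arrays after biotin labelling (Ambion WT Expression Kit), as the labels' protocols give it. The deposited log2 values are RMA summaries of probe sets, normalized between arrays by the authors, and the submitters' processing notes name no RMA version. Of 28815 probe sets, 21780 had 1 gene symbol and were named through the platform's annotation, with symbols updated through a table of GRCm38.p6. No detection calls were used, and 9 of the 51 members had a mean at or below the median of all values (6.91).

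The members, the lists and the tests were chosen with earlier results of these data known. Genes were tested two-sided with limma 3.58.1 (R 4.3.3, Benjamini-Hochberg adjusted over 19935 genes). The 3 arrays leave 1 residual degree of freedom, the spread between the clones, which stands in for that of mock. Because 11062 genes tied between the clones (equal within 1e-08), the prior (1.93 degrees of freedom, SD 0.0694) was taken from the other 8873 and applied to all. Fold values are 2 to the power of a log2 difference. The labels do not say whether the arrays came from separate cultures, so p-values cover only the spread between 2 arrays. Named in full were members at least 1.5-fold from mock in both clones and Acta2, Tagln, Cnn1, Vim, Ezr, Vil1, Vcl and Zyx, and other genes where 2-fold in both clones, with Actb, Srf, Rhoa and Mrtfa, except 1 that is not reported here. No probe set carried the symbol Actg1 alone, so it is not reported. On simulated data (19935 genes, 200 of them changed) the test recovered 0%, 64.5% and 76.5% of log2 changes of 0.5, 1.5 and 2.5, with 0, 0 and 1 false calls, when ties counted as a spread of 0 as in the test used, and 0% at each size when ties added no certainty. On the real arrays that last setting gave 57 rises and 102 falls over all genes, so the simulated 0% does not carry over to them. Simulated mock values had the spread of the clones, with no differences from cloning. The simulated false calls therefore do not measure the error rate on the real arrays. Alternatives changed the prior, the handling of ties, the normalization, the filter on low genes, the probe set, chromosome-wide shifts, the thresholds and the clones used. Chromosome medians were taken off per clone, as planned, and the version with 1 median for both clones was added after the outcome of the planned one was seen.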

Additional observations from a re-analysis of the deposited data

How the results depend on the processing

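The number of arrays limits the precision: mock was measured once and no alternative mends that. Of the members, 3 rose and 1 fell. With each clone's chromosome median taken off, as planned, 0 members rose and 0 fell, 0 of the other cytoskeleton genes rose and 0 fell, and limma passed 0 of all genes (4016 at an unadjusted p under 0.05), while the counts past 2-fold in both clones were the same for the members and for the other cytoskeleton genes. Those shifts were unequal between the clones and broke ties, on which the prior depends. A version with 1 shift shared by both clones was added after this was seen and is no independent check: 3 members rose and 1 fell, and over all genes 80 rose and 153 fell. The other alternatives gave 2 to 4 members that rose, whereas Pdlim1, the 1 that fell, was lost (0 fell) where ties added no certainty and with the mean of all probe sets, and 2 passed at an unadjusted p. At 1.5-fold, 8 members were lower in both clones in place of 2. With 1 clone left out, 3 to 4 members were 2-fold lower and 4 to 5 higher, with no test. The members' median difference in clone 4, -0.0054, was -0.0452 after a second quantile normalization, -0.0562 without low genes, -0.055 with each clone's chromosome medians taken off and -0.0595 with shared ones. In clone 10 it was 0, against -0.0407 after that normalization and -0.01 without low genes. Among the other cytoskeleton genes, 1 rose and 1 fell. With the prior from all genes 4 rose and 3 fell, with an intensity trend 2 rose and 2 fell, at an unadjusted p 5 rose and 3 fell, after a second quantile normalization 3 fell, and where ties added no certainty 0 fell. At 1.5-fold 11 were lower in place of 3, and with 1 clone left out 4 to 6 were 2-fold lower. The causes of the other changes were not tested. No named member that rose or fell changed direction. No paired analysis was possible because mock was measured once.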
